A study of Mus musculus with 9 samples.

Results

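NF-kappa-B is a family of transcription factors that switch on genes of inflammation, cell survival and tissue repair, and the 10 genes described here encode its 5 subunits (Nfkb1, Nfkb2, Rel, Rela and Relb) and 5 proteins that restrain or modify it and are themselves made in response to it (Nfkbia, Nfkbie, Nfkbiz, Tnfaip3 and Bcl3). They were chosen by name: the rows were those whose Ensembl identifier carries one of these symbols in GENCODE mouse release M21, and all 10 were found among the 29678 genes of the count tables. Kidney mRNA of mice, captured by its poly(A) tail and sequenced, was compared between 3 groups. Sham kidneys came from sham-operated mice, bIRI kidneys had bilateral ischemia-reperfusion injury, in which blood flow to both kidneys is stopped and restored, and BHBNa_bIRI kidneys had the same injury in mice given BHB sodium beforehand, BHB being the ketone body beta-hydroxybutyrate. All groups were sampled 24 h after reperfusion, and the labels give no strain, age, sex, dose or ischemia time. The labels list 3 libraries per group, but the table of bIRI replicate 2 held, for each of the 29678 genes, the average of the other two bIRI tables without its decimals. It was left out, and 8 libraries were compared, with 2 of bIRI.

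In resting cells, NF-kappa-B dimers are held in the cytoplasm by inhibitor proteins called I-kappa-B, of which Nfkbia encodes the alpha and Nfkbie the epsilon form. In the canonical arm of the pathway, receptors for tumor necrosis factor, interleukin-1 or bacterial products activate a kinase complex that has I-kappa-B destroyed, and dimers of Rela or Rel with the product of Nfkb1 enter the nucleus. In the noncanonical arm, the kinase encoded by Map3k14 triggers processing of the Nfkb2 product, which pairs with Relb. NF-kappa-B induces Nfkbia, Nfkbie and the ubiquitin-editing enzyme gene Tnfaip3, which shut the signal down, while the nuclear I-kappa-B proteins of Nfkbiz and Bcl3 bind the Nfkb1 and Nfkb2 products and can raise or lower transcription of chosen targets. In kidney, tubule cells and infiltrating leukocytes both use the pathway after injury. The 10 genes are protein-coding and lie on 8 chromosomes. On mm10, Nfkb2 spans chr19:46304320-46312385 and Rela chr19:5637483-5648130, both on the plus strand, while Relb, chr7:19606217-19629438, and Bcl3, chr7:19808462-19822770, lie near each other on the minus strand.

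RefSeq promoter windows on GRCm38.p6, each of 300 bases from 250 before to 50 after a transcription start, were given for 7 of the 10 genes, in 10 windows. Nfkb1, Relb and Nfkbiz were not matched. The windows were searched on both strands for the 10-base kappa-B consensus, the sequence that NF-kappa-B dimers bind, with overlapping matches kept. It was found in 8 of the 10 windows and for 6 of the 7 genes, all but Rela, and in 8.46% of the 32851 windows in the table. Windows of separate Nfkb2 starts overlap and share the match at chr19:46305705-46305714, which is counted in each. A match describes the letters of the window and is not evidence of binding. The stretches below are written 5′ to 3′ on the strand of the gene, with matches to the consensus in capitals, and are shown because they carry the feature that genes of both roles share. The first pair gives the 150 bases before the start of the I-kappa-B genes, and the others give each match with 9 flanking bases per side, overlapping matches merged. Counted from the start, the Nfkbia match began at position -29. Nfkb2 had matches from positions -39, -38 and -11 of its first start and from positions -236 and 11 of its second start, of which the latter is shown.
Nfkbia, chr12:55492648-55492797, minus strand: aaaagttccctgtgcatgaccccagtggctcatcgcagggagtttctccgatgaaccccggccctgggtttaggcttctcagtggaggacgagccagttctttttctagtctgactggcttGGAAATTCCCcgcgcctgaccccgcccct
Nfkbie, chr17:45555550-45555699, plus strand: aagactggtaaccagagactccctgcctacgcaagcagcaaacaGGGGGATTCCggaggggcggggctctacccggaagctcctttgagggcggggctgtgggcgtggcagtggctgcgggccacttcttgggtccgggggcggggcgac
Nfkb2, chr19:46304689-46304717, plus strand: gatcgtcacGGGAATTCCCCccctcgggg
Nfkb2, chr19:46304717-46304744, plus strand: gggccgaaaGGGGCTTTCCcggctggag
Nfkb2, chr19:46305696-46305723, plus strand: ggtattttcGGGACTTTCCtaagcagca
Rel, chr11:23771042-23771070, minus strand: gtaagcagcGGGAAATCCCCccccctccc
Tnfaip3, chr10:19015517-19015544, minus strand: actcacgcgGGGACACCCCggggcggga
Tnfaip3, chr10:19015404-19015431, minus strand: atttccatcGGAAATCCCCctgttggca
Bcl3, chr7:19822735-19822762, minus strand: cggcggcagGGGAAGTCCCgctgcccgg

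Total counts ranged from 33477985 (bIRI replicate 3) to 45909063 (Sham replicate 2) per library, and the 10 genes had between 54 counts (Rel in Sham replicate 2) and 3567 counts (Nfkb2 in BHBNa_bIRI replicate 1), so that all 10 passed the filter on low counts. Levels are CPM, counts scaled to a common library total, with library sizes scaled by the TMM method (trimmed mean of M-values). Changes are log2 fold changes from 1 edgeR quasi-likelihood fit of the 8 libraries, with p-values adjusted by Benjamini and Hochberg over the 17967 genes tested and called at 0.05. The 3 comparisons share libraries, so their results are not separate evidence. No label ties each library to its own animal, and p-values then measure only the spread between these libraries. Markers of kidney epithelium were present in every library, with the proximal tubule transporter Slc34a1 at 4424 to 5392 CPM in Sham and 359 to 720 CPM in both injured groups.

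**Figure D1:**
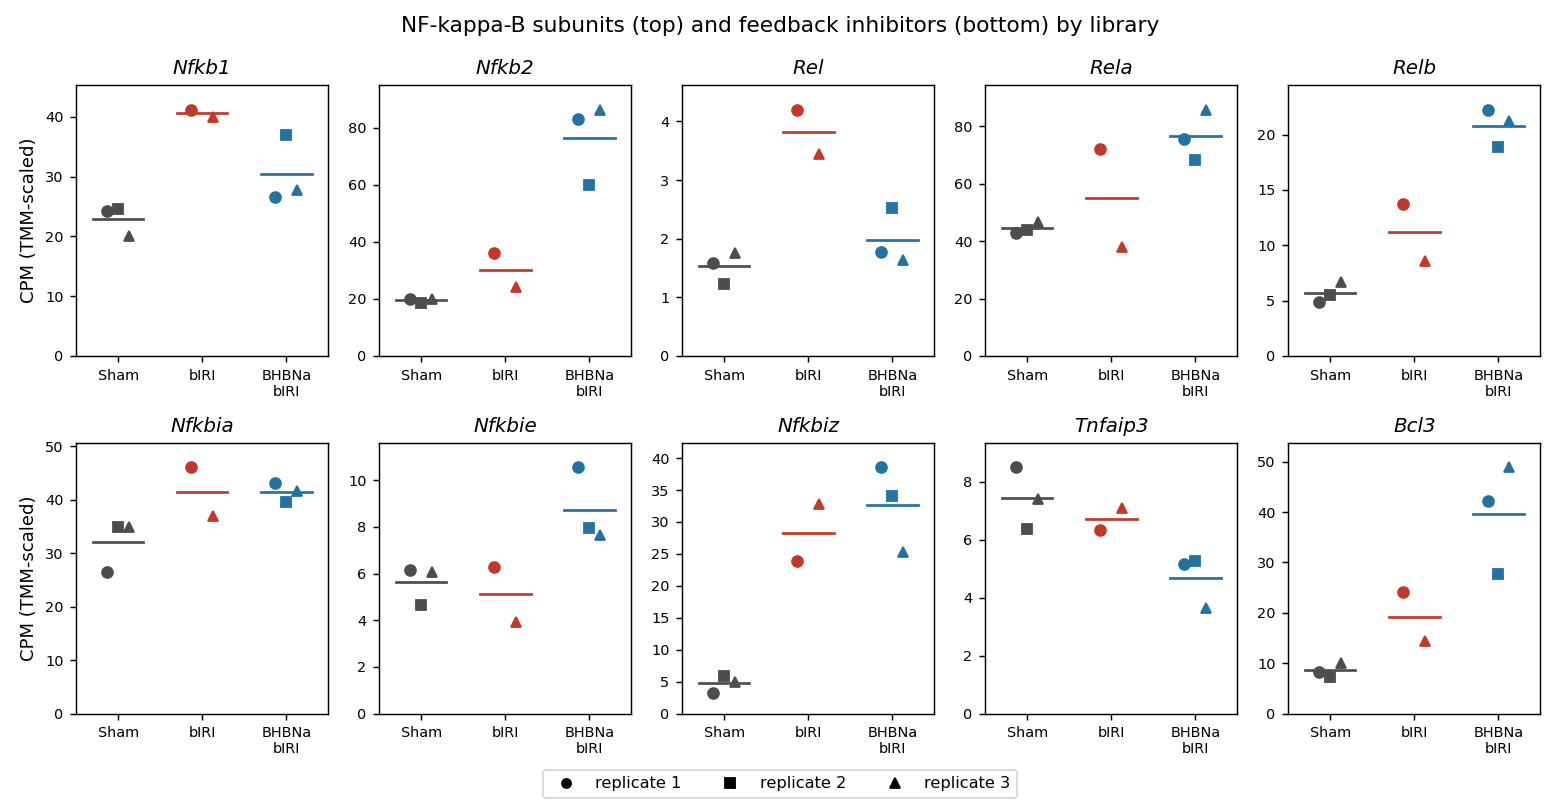
TMM-scaled CPM (y axis, from 0) of each gene by group (x axis), with 1 point per library, the shape giving the replicate number, and a line at the group mean. Nfkb1, Nfkb2, Relb, Nfkbia, Nfkbiz and Bcl3 were higher in every injured library than in every Sham library. Nfkb2, Relb, Bcl3 and Nfkbie were highest in the 3 BHBNa_bIRI libraries.

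The first comparison, bIRI against Sham, asks what ischemia and reperfusion did to these genes, and 5 of the 10 rose: the subunit genes Nfkb1, Rel and Relb and the nuclear I-kappa-B genes Nfkbiz and Bcl3. Of all genes tested 35.1% were called, and 18.9% rose. None of the 10 fell by edgeR, 0 of 10 fell at an unadjusted p of 0.05 and 0 of 10 by DESeq2, while 16.2% of all genes fell. Their median log2 fold change was 0.73, against 0.08 over all genes tested. Values of the groups did not overlap for 7 of the 10, all higher in bIRI, where 55.9% of all genes did not overlap, 28.7% higher and 27.2% lower. The count of risers was 4, 2 and 5 without Sham replicates 1, 2 and 3, where 23.4%, 23.5% and 25.6% of all genes were called. It also moved without bIRI replicate 1, falling, and without bIRI replicate 3, rising. Those fits leave a lone bIRI library, and their counts are not given. The classic feedback inhibitors Nfkbia, Nfkbie and Tnfaip3 were not called.

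Among the canonical subunits, Nfkb1, whose precursor protein is trimmed to a DNA-binding subunit, was at 24.3, 24.6 and 20.05 CPM in the 3 Sham libraries and at 41.2 and 39.96 CPM in bIRI replicates 1 and 3. Both bIRI libraries lay well above Sham and close to each other. Nfkb1 rose 1.77-fold, a log2 fold change of 0.82 (SE 0.19, edgeR adjusted p 0.00935), and kept this call in all 19 alternatives. Rel, the c-Rel gene, best known for its role in lymphoid and myeloid cells, was the scarcest of the 10 per kilobase of transcript. It was at 1.59, 1.23 and 1.76 CPM in Sham and 4.20 and 3.45 CPM in bIRI. The groups did not overlap, and Rel rose 2.5-fold, by 1.32 on the log2 scale (SE 0.34, edgeR adjusted p 0.0144). Without Sham replicate 2 its edgeR adjusted p was 0.0677, and after removal of trends with length and GC content of the transcripts its log2 fold change was 0.80 (edgeR adjusted p 0.095). Rela, which encodes the p65 subunit that activates transcription in most canonical dimers, was at 42.7, 43.9 and 46.7 CPM in Sham and 72.0 and 37.9 CPM in bIRI replicates 1 and 3. The bIRI libraries thus lay on opposite sides of Sham, and Rela was not called (log2 fold change 0.31, SE 0.25, edgeR adjusted p 0.368). Without bIRI replicate 3 it was higher by 0.70 (edgeR adjusted p 0.00818), and without bIRI replicate 1 it stood at -0.30 (edgeR adjusted p 0.188), where the lone bIRI library is assumed to vary like the other groups.

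Of the subunits of the noncanonical arm, Relb was called. Relb, the partner of the processed Nfkb2 product, was at 4.895, 5.55 and 6.69 CPM in Sham and at 13.7 and 8.57 CPM in bIRI replicates 1 and 3. It rose 1.95-fold, by 0.97 on the log2 scale (SE 0.24, edgeR adjusted p 0.0135). That call was lost without Sham replicate 1 (edgeR adjusted p 0.0545), without Sham replicate 2 (edgeR adjusted p 0.0532) and without bIRI replicate 1 (log2 fold change 0.52, edgeR adjusted p 0.0799). Nfkb2 was at 19.8, 18.7 and 20.1 CPM in Sham, where its libraries hardly differed, and at 36.2 and 24.2 CPM in bIRI. Both bIRI libraries were above Sham, but Nfkb2 just missed the threshold, with a log2 fold change of 0.63 (SE 0.22, 95% interval 0.14 to 1.12, edgeR adjusted p 0.0502). Its log2 fold change was 0.24 without bIRI replicate 1. It passed without bIRI replicate 3 (0.89, edgeR adjusted p 0.00531) and without BHBNa_bIRI replicate 2 (edgeR adjusted p 0.0428). Of the 4584 exonic bases of Nfkb2, 531 are shared with the divergent noncoding gene AC114539.1 and 299 with the gene Psd, both on the other strand, and whether reads were counted by strand is not given in the sources used here. Those genes had 178 to 621 and 107 to 330 counts per library, against 778 to 3567 for Nfkb2.

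Of the inhibitors, Nfkbiz showed the widest gap between groups. Its product, I-kappa-B zeta, is a nuclear cofactor for secondary NF-kappa-B targets such as Lcn2. Nfkbiz was at 3.25, 5.94 and 4.93 CPM in Sham and at 23.9 and 32.8 CPM in bIRI. Every bIRI value was over the highest Sham value, and Nfkbiz rose 6.01-fold, by 2.59 on the log2 scale (SE 0.28, edgeR adjusted p 0.00027), a call kept in all 19 alternatives. Bcl3, the other nuclear I-kappa-B gene, was at 8.27, 7.33 and 10.1 CPM in Sham and at 24.1 and 14.3 CPM in bIRI replicates 1 and 3. Bcl3 rose 2.24-fold, by 1.16 on the log2 scale (SE 0.29, edgeR adjusted p 0.0136). Without Sham replicate 2 its edgeR adjusted p was 0.0548, and without bIRI replicate 1 its log2 fold change was 0.67 (edgeR adjusted p 0.0693).

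The cytoplasmic inhibitors were not called. Nfkbia was at 26.4, 34.8 and 34.9 CPM in Sham and at 46.1 and 36.95 CPM in bIRI, a small step without overlap (log2 fold change 0.37, SE 0.18, edgeR adjusted p 0.14). It was called without bIRI replicate 3 (log2 fold change 0.53, edgeR adjusted p 0.0479) and with the length and GC trends taken out (0.74, edgeR adjusted p 0.00401). Nfkbie overlapped between the groups, at 6.16, 4.66 and 6.07 CPM in Sham and 6.28 and 3.93 CPM in bIRI (log2 fold change -0.14, 95% interval -0.79 to 0.51, edgeR adjusted p 0.738). Tnfaip3, which encodes the enzyme A20 that strips activating ubiquitin chains from pathway adaptors, also overlapped, at 8.5, 6.37 and 7.39 CPM in Sham and 6.33 and 7.09 CPM in bIRI. Its log2 fold change was -0.15 with a 95% interval from -0.73 to 0.44 (edgeR adjusted p 0.699).

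Leukocyte markers are given here because leukocytes also express these genes, and in whole tissue more cells of a type cannot be told apart from more RNA per cell. The summed level of 8 neutrophil markers was 0.982 to 1.71 CPM in Sham, 13.4 and 5.26 CPM in bIRI replicates 1 and 3, and 38.8 to 68.1 CPM in BHBNa_bIRI, with 4 of the 8 at 0 in at least 1 library (Cxcr2, Ly6g, Retnlg and Camp), and the defining marker Ly6g at 0 in all Sham and bIRI libraries. The sum of 10 macrophage and monocyte markers was 114 to 188 CPM in Sham, 137 and 115 CPM in bIRI and 192 to 228 CPM in BHBNa_bIRI, with none at 0. These markers moved both ways: in bIRI against Sham, Cd68 (log2 fold change 2.76) and Itgam (2.68) rose while Csf1r (-1.31) and Ly6c2 (-2.30) fell, and in BHBNa_bIRI against Sham 5 of the 10 rose and 1, Csf1r, fell. T cell markers summed to 4.75 to 6.95 CPM in Sham and to 1.66 to 2.65 CPM in the injured libraries, with Cd3g at 0 in bIRI replicate 1 only. B cell markers summed to 2.31 to 4.73 CPM in Sham and 1.23 to 4.37 CPM in the injured libraries, with Ms4a1 at 0 in both bIRI libraries. The neutrophil sum was thus lowest in Sham and highest in BHBNa_bIRI, the order also of Nfkb2, Relb and Bcl3. Within BHBNa_bIRI, replicate 2 had the highest sum (68.1 CPM) but the lowest Nfkb2 (59.8 CPM), Relb (18.9 CPM) and Bcl3 (27.6 CPM). Within bIRI, replicate 1 was above replicate 3 in the sum and in these genes. Much of the sum was S100a8 and S100a9, at 18.3 and 26.1 CPM in BHBNa_bIRI replicate 2. The part of the neutrophil sum in the results of these genes was not tested.

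**Figure D2:**
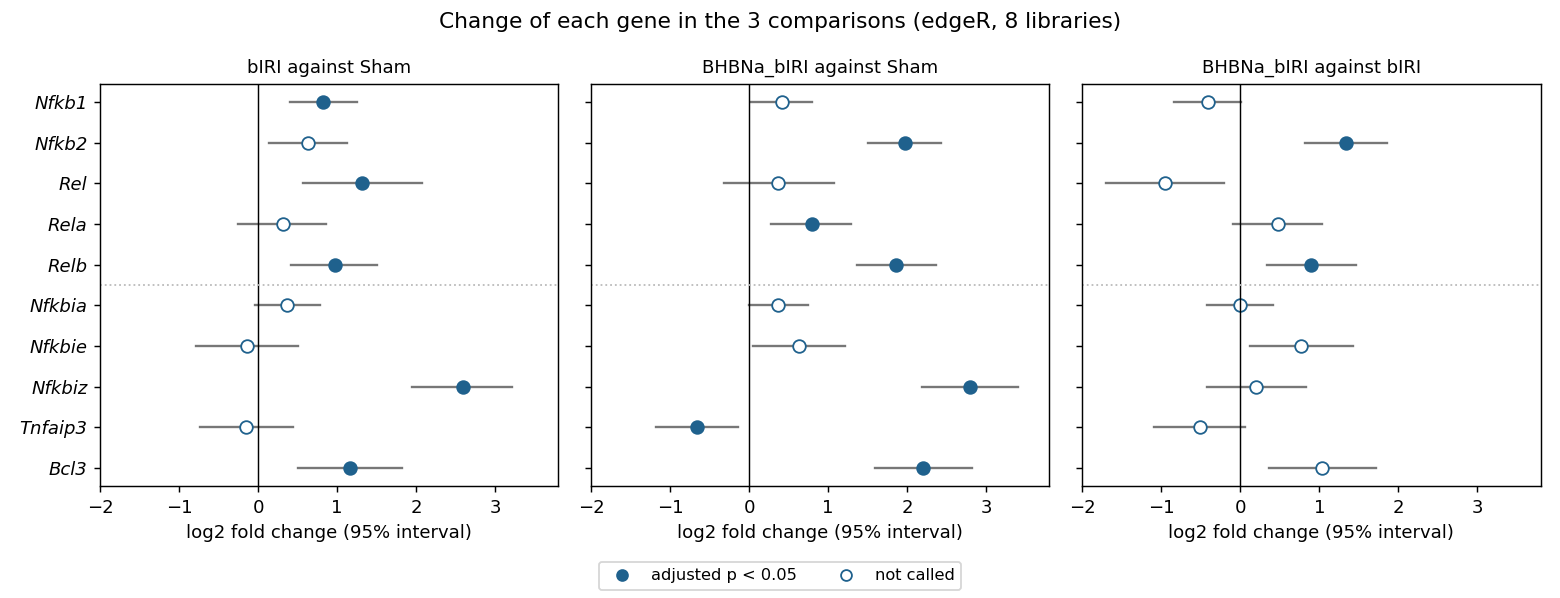
Log2 fold change (x axis) of each gene (y axis) in the 3 comparisons, with 95% intervals; filled points passed an adjusted p of 0.05 by edgeR, and the dotted line parts subunits from inhibitors. Nfkbiz had the largest change of the 10 in both comparisons with Sham, at 2.59 and 2.79, while Nfkb2 had the largest of them between the injured groups, at 1.34.

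The second comparison set BHBNa_bIRI kidneys against the same Sham libraries. Of the 10 genes, 5 rose (Nfkb2, Rela, Relb, Nfkbiz and Bcl3) and 1 fell (Tnfaip3), where 43.6% of all genes tested were called, 21.3% rising and 22.2% falling. Their median log2 fold change was 0.71, against 0.04 over all genes. Values did not overlap between groups for 9 of the 10, with 8 higher and 1 lower, while 64.8% of all genes did not overlap, 32.6% higher and 32.2% lower. With upper-quartile factors, 8 rose and 0 fell, where 44.0% of all genes were called. With 1 Sham or BHBNa_bIRI library left out, 4 or 5 rose, where 30.2% to 36.3% of all genes were called. More rose without either bIRI library, though bIRI is not in this comparison. Those fits leave a lone bIRI library, and their counts are not given. The 4 largest changes, in Nfkbiz, Bcl3, Nfkb2 and Relb, were called in all 19 alternatives each.

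Nfkb2 stood at 83.2, 59.8 and 86.4 CPM in BHBNa_bIRI replicates 1, 2 and 3, against 19.5 ± 0.753 CPM (SD, n = 3) in Sham. It was the clearest separation among the subunits, with no overlap and little spread in Sham, and Nfkb2 rose 3.91-fold (log2 fold change 1.97, SE 0.21, edgeR adjusted p 0.000115). Its partner Relb was at 22.3, 18.9 and 21.2 CPM, against 5.71 ± 0.910 CPM (SD, n = 3) in Sham. Relb rose 3.64-fold (log2 fold change 1.86, SE 0.23, edgeR adjusted p 0.000256). Both genes of the noncanonical dimer were thus higher in each treated library.

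Of the canonical subunits Rela alone was called by edgeR here. Rela was at 75.5, 68.4 and 85.8 CPM, all above the Sham range, and rose 1.72-fold (log2 fold change 0.79, SE 0.22, edgeR adjusted p 0.0189). That call was lost without Sham replicate 1 or 2 (edgeR adjusted p 0.0692 and 0.0694), without BHBNa_bIRI replicate 1 (0.0501) and without BHBNa_bIRI replicate 3 (0.0672). Nfkb1 was at 26.6, 36.9 and 27.9 CPM, above Sham without overlap, but was not called (log2 fold change 0.41, SE 0.17, edgeR adjusted p 0.0821). Nfkb1 was called without bIRI replicate 3 (edgeR adjusted p 0.047) and after removal of length and GC trends (0.58, edgeR adjusted p 0.0136). Rel was at 1.77, 2.52 and 1.63 CPM and overlapped Sham, with a log2 fold change of 0.37 and a 95% interval from -0.32 to 1.07 (edgeR adjusted p 0.354).

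The nuclear I-kappa-B genes were high in all 3 treated libraries. Nfkbiz was at 38.6, 34.1 and 25.3 CPM and rose 6.93-fold over Sham (log2 fold change 2.79, SE 0.27, edgeR adjusted p 7.82e-05). Bcl3 was at 42.1, 27.6 and 48.9 CPM, the spread coming from a lower replicate 2, and rose 4.61-fold (log2 fold change 2.20, SE 0.28, edgeR adjusted p 0.000305). Tnfaip3 fell. At 5.17, 5.25 and 3.64 CPM it lay below each Sham library, and its fitted level was 1.58-fold lower (log2 fold change -0.66, SE 0.23, edgeR adjusted p 0.0442). The call in Tnfaip3 was weak, since it was lost without any 1 of the 6 Sham and BHBNa_bIRI libraries (edgeR adjusted p 0.0659 to 0.159), and with the length and GC trends taken out (log2 fold change -0.36, edgeR adjusted p 0.192).

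The cytoplasmic I-kappa-B genes were again not called. Nfkbia was at 43.1, 39.6 and 41.6 CPM, a narrow range just above Sham, and was not called (log2 fold change 0.37, SE 0.17, edgeR adjusted p 0.0953). Nfkbie was at 10.6, 7.95 and 7.63 CPM, also above every Sham library, with a log2 fold change of 0.63 (SE 0.26, edgeR adjusted p 0.0725). Both were called without bIRI replicate 1 (edgeR adjusted p 0.0464 for Nfkbia and 0.0235 for Nfkbie) and without bIRI replicate 3 (0.0397 and 0.0191).

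The third comparison, BHBNa_bIRI against bIRI, asks what pretreatment changed in the injured kidney, and both genes of the noncanonical dimer rose. Nfkb2 rose 2.53-fold, from 36.2 and 24.2 CPM to 76.5 ± 14.5 CPM (SD, n = 3), a log2 fold change of 1.34 (SE 0.23, edgeR adjusted p 0.0275). Relb rose 1.86-fold to 20.8 ± 1.72 CPM (SD, n = 3), from 13.7 and 8.57 CPM, a log2 fold change of 0.90 (SE 0.25, edgeR adjusted p 0.0447). These were 2 of the 10 genes, where 13.5% of all genes tested were called and 4.88% rose. By edgeR 0 of the 10 fell, where 8.65% of all genes fell, but 1 of 10 was lower at an unadjusted p of 0.05 and 1 by DESeq2, and it was Rel in each case. Their median log2 fold change was 0.34, against -0.05 over all genes.

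Without overlap, 4 of the 10 were higher (Nfkb2, Relb, Bcl3 and Nfkbie) and 3 lower (Nfkb1, Rel and Tnfaip3) in BHBNa_bIRI, while 46.0% of all genes did not overlap, 22.2% higher and 23.8% lower. Bcl3, at 39.6 ± 10.9 CPM (SD, n = 3) after pretreatment against 24.1 and 14.3 CPM in bIRI, just missed the threshold, with a log2 fold change of 1.04 (SE 0.30, 95% interval 0.36 to 1.72, edgeR adjusted p 0.0501). DESeq2 called it (log2 fold change 1.05, adjusted p 0.0123), as did edgeR without bIRI replicate 1 (1.52, adjusted p 0.00269) and without BHBNa_bIRI replicate 2 (1.24, adjusted p 0.0484). Nfkbie had a log2 fold change of 0.77 (95% interval 0.12 to 1.43, edgeR adjusted p 0.0979) and was called without bIRI replicate 1 (1.2, edgeR adjusted p 0.00868). Rel was lower, at 1.97 ± 0.478 CPM (SD, n = 3) against 4.20 and 3.45 CPM, and its treated libraries overlapped Sham. Its log2 fold change was -0.95 (SE 0.34, 95% interval -1.70 to -0.20, edgeR adjusted p 0.0814; DESeq2 adjusted p 0.0459).

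The other 5 genes were not called between the injured groups. Nfkb1 and Tnfaip3 were lower in each treated library than in either bIRI library, with log2 fold changes of -0.41 (95% interval -0.84 to 0.01, edgeR adjusted p 0.154) and -0.51 (95% interval -1.09 to 0.06, edgeR adjusted p 0.186). Rela, Nfkbia and Nfkbiz overlapped. For Rela the log2 fold change was 0.48 (95% interval -0.09 to 1.04, edgeR adjusted p 0.207), and without bIRI replicate 1 it was 1.07 (edgeR adjusted p 0.00106). Nfkbia was at the same mean level in both groups, 41.5 and 41.4 CPM, with a 95% interval of its log2 fold change from -0.42 to 0.41. Nfkbiz had a log2 fold change of 0.20 with an interval from -0.42 to 0.83 (edgeR adjusted p 0.639).

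The calls of this comparison depended on single libraries: the count of risers was 0 without Sham replicate 1 or 2 or BHBNa_bIRI replicate 1 or 3, 1 without Sham replicate 3 or bIRI replicate 3, and 5 without bIRI replicate 1. The counts over all genes moved in the same way: edgeR called 0 genes in either direction without Sham replicate 1 or 2 or BHBNa_bIRI replicate 1, 1 gene without BHBNa_bIRI replicate 3, 5.73% without Sham replicate 3, 4.27% without bIRI replicate 3 and 42.8% without bIRI replicate 1. Nfkb2 lost its call without Sham replicate 1 or 2 (edgeR adjusted p 0.054 and 0.0604) and without BHBNa_bIRI replicate 1 or 3 (0.105 and 0.115), at log2 fold changes from 1.24 to 1.34. Relb lost it without any 1 library other than bIRI replicate 1 (edgeR adjusted p 0.0621 to 0.132), with a log2 fold change of 0.59 without bIRI replicate 3 and of 1.33 without bIRI replicate 1. A fit of the 5 injured libraries alone called neither (edgeR adjusted p 0.108 for Nfkb2 and 0.121 for Relb), and of all 17407 genes it called 1.

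Transcript length moved with this comparison. Across 12390 genes whose mean log2 CPM was above 1, which are not independent of each other, longer transcripts had lower log2 fold changes (Spearman's rho -0.537) and GC-rich ones higher (0.446). Among the 10 genes, the longest transcript was that of Rel, with 7466 bases and 42.5% GC, and the most GC-rich that of Bcl3, with 1850 bases and 62.6% GC, against a median length of 2760 bases over the genes tested. Offsets for smooth trends in length and GC of each library brought Rel from -0.95 to -0.26 (edgeR adjusted p 0.661), Bcl3 from 1.04 to 0.38 (0.242) and Relb from 0.90 to 0.43 (0.196). Nfkb2, with 3846 bases and 59.4% GC, moved least among the genes that had been higher without overlap, from 1.34 to 1.13 (SE 0.21, edgeR adjusted p 0.0518). Nfkbia went from near 0 to -0.46 (SE 0.14, edgeR adjusted p 0.0877). With these trends taken out, edgeR called 2 of all 17967 genes, or 0.0111%.

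**Figure D3:**
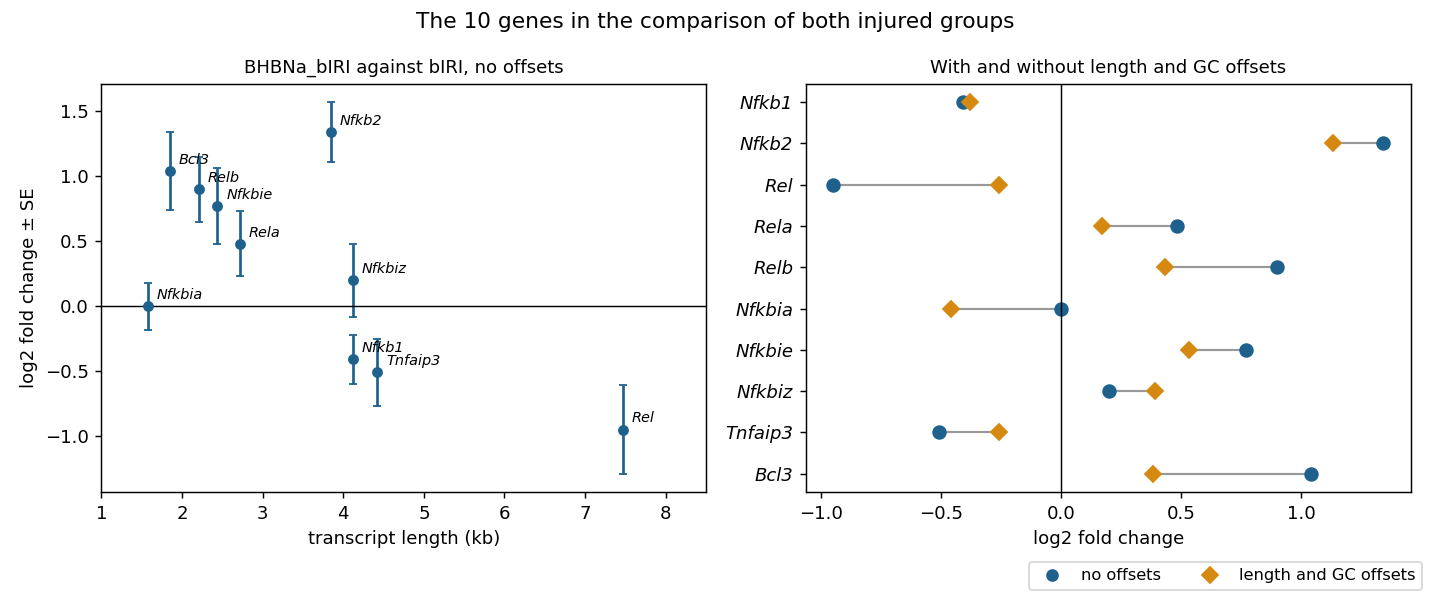
Left, log2 fold change of BHBNa_bIRI against bIRI (y axis, bars are SE) by transcript length in kb (x axis), 1 point per gene; right, the same log2 fold change (x axis) for each gene with and without offsets for length and GC content. Rel, the longest, is lowest at -0.95, and Nfkb2 is the gene that remains highest with offsets, at 1.13.

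Levels between genes can be compared per kilobase (kb) of transcript. In Sham, Nfkbia and Rela led, with means of 20.3 and 16.4 CPM per kb that overlapped between libraries. Nfkb1, Nfkb2 and Bcl3 followed at 5.58, 5.08 and 4.64 CPM per kb, each overlapping its neighbour, then Relb, Nfkbie, Tnfaip3 and Nfkbiz at 2.59 to 1.14 CPM per kb, also in an overlapping chain. Rel was lowest, at 0.205 CPM per kb, below every other gene without overlap. In bIRI, Nfkbia and Rela again led, at 26.3 and 20.2 CPM per kb, Bcl3 and Nfkb1 came next at 10.4 and 9.86 CPM per kb, and Nfkbiz, ninth in Sham, was sixth at 6.89 CPM per kb. In BHBNa_bIRI, the top 4 were Rela, Nfkbia, Bcl3 and Nfkb2, at 28.2, 26.3, 21.4 and 19.9 CPM per kb, each overlapping its neighbour. Nfkb1 was seventh there, at 7.40 CPM per kb.

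Ratios of 2 genes within 1 library are free of the scaling between libraries, though not of a trend with length, and are given without a test. The ratio of Nfkb2 to Nfkb1, the 2 genes whose long products are trimmed to DNA-binding subunits, was 0.873, 0.812 and 1.07 in Sham, 0.94 and 0.649 in bIRI replicates 1 and 3, and 3.35, 1.73 and 3.32 in BHBNa_bIRI. The ratio was at most 1.07 in the first 2 groups and above 1.5 only in the treated libraries. Both transcripts are near 4 kb (3846 and 4117 bases), but their GC content differs (59.4% and 53.1%). Relb to Rela was higher at each step without overlap, at 0.141, 0.155 and 0.176 in Sham, 0.235 and 0.278 in bIRI and 0.363, 0.34 and 0.304 in BHBNa_bIRI. Bcl3 to Nfkb1 was 0.662 to 1.12 in Sham, 1.3 and 0.797 in bIRI, and 1.66 to 3.91 in BHBNa_bIRI.

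Nfkbia to Rela was 1.06, 1.37 and 1.29 in Sham, 1.1 and 1.68 in bIRI and 0.984, 0.997 and 0.833 in BHBNa_bIRI, so that every treated library was below every other one. Tnfaip3 to Nfkbia was 0.0652 to 0.115 in Sham, 0.049 and 0.0685 in bIRI and 0.0313 to 0.0473 in BHBNa_bIRI.

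**Figure D4:**
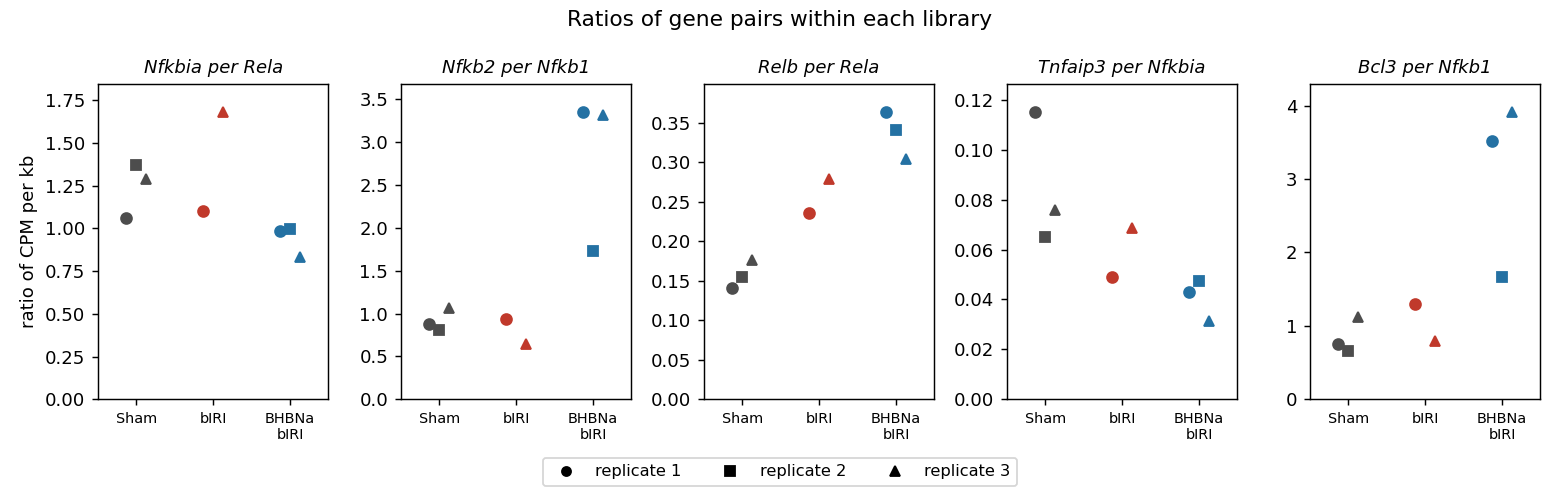
Ratio of CPM per kb (y axis, from 0) of 5 pairs of genes within each library, by group (x axis), with the shape giving the replicate number. Nfkb2 to Nfkb1 is 1.73 to 3.35 in the BHBNa_bIRI libraries and at most 1.07 in the others, and Nfkbia to Rela is below 1 only in the BHBNa_bIRI libraries.

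The rest of the pathway was read through 99 further genes in 6 lists by role, of which 93 were tested. In bIRI against Sham 26 rose and 7 fell, where 18.9% of all genes rose and 16.2% fell, so that the share called in either direction was near the 35.1% of all genes. The median log2 fold change was 0.45, against 0.08 over all genes tested. The count of falls was 3, 4 and 4 without Sham replicates 1, 2 and 3, where 23.4%, 23.5% and 25.6% of all genes were called. It was larger than in the main fit without bIRI replicate 1, where a lone bIRI library remains and the count is not given. Among 11 receptors tested, 4 rose and 7 were not called. Tnfrsf12a, the receptor for the cytokine TWEAK that feeds the noncanonical arm, was at 11.2 to 21.5 CPM in Sham and at 446 and 90.3 CPM in bIRI (log2 fold change 4.06, SE 0.56, edgeR adjusted p 0.00081). Without bIRI replicate 1 its log2 fold change was 2.42. Tlr4, the receptor for bacterial lipopolysaccharide, rose by 2.44 and Il1r1, the interleukin-1 receptor, by 1.62 on the log2 scale. Both kept their calls without any 1 library, and Il1r1 stood at 1.04 without bIRI replicate 1.

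In the adaptor list, which also holds the kinase genes Irak1, Irak4 and Ripk1, 6 of 19 rose and 2 fell. The ubiquitin ligase gene Birc3, itself a target of the pathway, was higher by 1.2 (SE 0.20, edgeR adjusted p 0.00206). Among 11 genes of kinases and kinase-binding proteins 3 rose (Map3k8, Tab3 and Map3k14) and 1, the kinase-binding gene Tab1, fell. Map3k14, the kinase of the noncanonical arm, was higher by 0.81 (SE 0.26, edgeR adjusted p 0.0387). The Map3k14 call was lost without Sham replicate 2 or 3, bIRI replicate 1, or BHBNa_bIRI replicate 1 or 2 (highest edgeR adjusted p 0.127). The calls of Irak3 (1.03) and Map3k8 (1.66) were lost without any 1 library other than bIRI replicate 3, and those of Irak4 (0.88) and Tab3 (0.93) without any 1 Sham library or bIRI replicate 3. The list of 16 other regulators holds mostly inhibitors, but Sharpin, Rbck1 and Rnf31 in it encode a ubiquitin ligase that promotes the signal. In this list 1 rose and 1 fell, both of them A20-binding proteins. Tnip2 was higher by 1.17 and Tnip1 lower, at -0.85 (SE 0.21, edgeR adjusted p 0.0118), with Tnip2 at 0.64 without bIRI replicate 3. Among 31 target genes 12 rose and 3 fell, led by Lcn2, which depends on I-kappa-B zeta, at 1.96 to 3.36 CPM in Sham and 2435 and 1000 CPM in bIRI. The chemokine gene Cxcl2 was at 0 to 0.0517 CPM in Sham and at 1.86 and 1.61 CPM in bIRI. None of the 5 ligand genes tested was called by edgeR, while 2 passed 0.05 before adjustment. These were Tnf, the tumor necrosis factor gene, higher at 1.77 (edgeR adjusted p 0.0894), and Ltb, for lymphotoxin beta, lower at -1.28 (edgeR adjusted p 0.0754).

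In BHBNa_bIRI against Sham, 37 of the 93 pathway genes rose and 10 fell, where 43.6% of all genes were called, 21.3% rising and 22.2% falling. The median log2 fold change was 0.60, against 0.04 over all genes. Ligands rose in 2 of 5 and receptors in 6 of 11. Tnfsf12, which encodes the ligand TWEAK itself, was at 8.67, 10.2 and 11.99 CPM in Sham and at 46.4, 32.7 and 53.8 CPM in BHBNa_bIRI (log2 fold change 2.11, SE 0.36, edgeR adjusted p 0.00165), and its receptor gene Tnfrsf12a was higher by 4.68. Adaptors rose in 7 and fell in 3 of 19, including Traf2, an adaptor of the tumor necrosis factor receptors, higher by 1.54, and Myd88, the adaptor of toll-like and interleukin-1 receptors, higher by 1.31. Genes of kinases and kinase-binding proteins rose in 2 and fell in 2 of 11. The latter were Chuk, the I-kappa-B kinase alpha gene, at -1.03 (SE 0.17, edgeR adjusted p 0.00112), and the kinase-binding gene Tab2 at -1.01. Of the 16 other regulators 3 rose (Nfkbid, Tnip2 and Sharpin) and 1 fell. Nfkbid, another nuclear I-kappa-B gene, was higher by 1.91 (SE 0.45, edgeR adjusted p 0.00807) from 0.273 to 0.708 CPM in Sham. Sharpin, which is not an inhibitor, was higher by 0.47 (edgeR adjusted p 0.0489). Targets rose in 17 and fell in 4 of 31. Tnfsf12, Tnfrsf12a, Traf2, Myd88, Chuk, Tab2 and Nfkbid kept their calls without any 1 library, but 4 others picked by the same rule did not. Traf1 (1.12) lost its call without Sham replicate 1 or 2 or BHBNa_bIRI replicate 1, the kinase gene Map3k8 (1.79) without Sham replicate 1 or BHBNa_bIRI replicate 2, Tnip2 (0.89) without any 1 Sham library or BHBNa_bIRI replicate 2, and the ubiquitin ligase gene Itch (-0.65) without Sham replicate 1 (highest edgeR adjusted p 0.078).

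Between the injured groups, 9 of the 93 pathway genes rose and 8 fell, where 4.88% of all genes rose and 8.65% fell, so that the share that fell was at the background. TMM factors computed without the mitochondrial and the 20 top genes gave 10 and 5, and upper-quartile factors 12 and 5. None of these counts was stable: without Sham replicate 1 or 2, or without BHBNa_bIRI replicate 1 or 3, edgeR called 0 in either direction, without bIRI replicate 3 it called 0 higher and 3 lower, without Sham replicate 3 4 and 2, without BHBNa_bIRI replicate 2 3 and 3, and without bIRI replicate 1 35 and 15. Tab2 fell from 66.0 and 90.7 CPM to 25.2, 34.6 and 19.6 CPM (log2 fold change -1.56, SE 0.26, edgeR adjusted p 0.0275), and Traf2 rose from 27.8 and 21.1 CPM to 56.2, 37.8 and 53.7 CPM (1.01, SE 0.22, adjusted p 0.03). Tnfsf12, at 21.4 and 7.33 CPM in bIRI, rose by 1.63 (SE 0.41, edgeR adjusted p 0.0367), and Ltb, which encodes lymphotoxin beta, a ligand of the noncanonical arm, by 2.40 (SE 0.51, edgeR adjusted p 0.0296) from 0.306 and 0.284 CPM. The log2 fold change of Tnfsf12 was 1.05 without bIRI replicate 3 and 2.65 without bIRI replicate 1. Of the targets, Cfb (log2 fold change -3.04) and Ccnd1 (-1.41) fell and Mmp9 (2.31) rose. Malt1 (-1.07), Tlr3 (-0.89) and Tbk1 (-0.8) also fell, while Traf1 (1.3), Sharpin (0.71) and Tab1 (0.66) rose. With length and GC trends taken out, 0 of the 93 were called by edgeR in either direction.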

How the data were processed

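The authors deposited raw read counts per gene, 1 table for each of 9 libraries; the submitters' processing notes list mm10, HISAT2, featureCounts, Subread and DESeq2, with versions, annotation and strand setting not given in the sources used here. Symbols and positions came from GENCODE M21 (GRCm38, the same assembly as mm10), and transcript length and GC content from each gene's longest coding transcript. Counts were fitted with edgeR 4.0.16 in R 4.3.3 after filterByExpr, with TMM factors of 0.83 to 1.37, robust dispersions, 1 mean per group, 5 residual degrees of freedom and a common biological CV of 0.296; tests were two-sided. The SE is the log2 fold change divided by the square root of F. The procedure was also run on simulated counts that held no trend with length or GC content, and no result here rests on that run. The genes, lists and tests were chosen with earlier results of these data known. All 10 genes were named. Other pathway genes came mostly from the up to 3 called genes of each list and comparison with the largest change. These also had a mean of at least 1 CPM in a group and no overlap, and not all of them are given in the comparisons with Sham. Tnf, and Ltb in bIRI against Sham, were named after their values were seen, as were the macrophage markers. Alternatives were DESeq2 1.42.0, RLE and upper-quartile factors, TMM without mitochondrially encoded and the 20 most abundant genes, no filter, 1 CPM in 3 libraries, a fit of the 2 groups alone, a replicate block, offsets from natural splines with 5 degrees of freedom in length and GC content, both together, all 9 tables, and leaving out each library.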

Additional observations from a re-analysis of the deposited data

How the results depend on the processing

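Of the 190 values per comparison that the 10 genes had under 19 alternatives, 165 kept direction and side of the threshold in bIRI against Sham, 159 in BHBNa_bIRI against Sham and 149 in BHBNa_bIRI against bIRI, and 4, 0 and 9 changed sign; the causes were not tested. Among these alternatives, the fit of all 9 tables counts the averaged bIRI replicate 2 as a library. That adds no data and narrows the bIRI spread, so its calls are not separate evidence. It called 47.9% of all genes in bIRI against Sham and 33.2% in BHBNa_bIRI against bIRI, where the main fit called 35.1% and 13.5%. In bIRI against Sham, Nfkbie was at 0.15 with length and GC offsets, 0.05 with the replicate block and these offsets, and from -0.59 to 0.16 with 1 library left out, and Rela from -0.30 to 0.70. In BHBNa_bIRI against bIRI, Nfkbia, near 0, was at 0.01 with DESeq2, RLE or upper-quartile factors or no filter, at 0.02 with TMM without mitochondrial and top 20 genes or with all 9 tables, and from -0.16 to 0.22 with 1 library left out.

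Of the 10 genes, those higher in bIRI than Sham numbered 5, and 2 to 6 with 1 Sham or BHBNa_bIRI library left out. In these fits 23.4% to 32.6% of all genes were called in either direction, against 35.1% in the main fit. The count also fell without bIRI replicate 1 and rose beyond this range without bIRI replicate 3. Those fits leave a lone bIRI library, and their counts are not given. In BHBNa_bIRI against Sham 5 were higher, and 8 with upper-quartile factors or the compared groups only, where 44.0% and 59.9% of all genes were called. With 1 Sham or BHBNa_bIRI library left out 4 or 5 were higher, where 30.2% to 36.3% of all genes were called. More were higher without either bIRI library, in fits with a lone bIRI library whose counts are not given. In the main fit 1 was lower, and 0 with upper-quartile factors, no filter, the replicate block, the offsets or both. It was also 0 with 1 Sham or BHBNa_bIRI library left out. In BHBNa_bIRI against bIRI 2 were higher, 0 with the compared groups only, the replicate block, the offsets or both, 4 with all 9 tables, and 0 to 5 with 1 library left out; 0 were lower, and 1 with DESeq2 or all 9 tables.

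Of the pathway genes, 7 were lower in bIRI than Sham, 4 with the compared groups only (26.1% of all genes called) and 12 with all 9 tables (47.9%). With 1 Sham or BHBNa_bIRI library left out 3 to 5 were lower. More than in the main fit were lower without bIRI replicate 1, where a lone bIRI library remains and the count is not given. In BHBNa_bIRI against Sham 10 were lower, and 6 with block and offsets. In BHBNa_bIRI against bIRI 9 were higher, 16 with DESeq2, 15 with no filter and 20 with all 9 tables, and 8 were lower, 14 with DESeq2, 5 with upper-quartile factors, 5 with TMM without mitochondrial and top 20 genes, 13 with a filter of 1 CPM and 17 with all 9 tables. Both counts were 0 with the compared groups only, the replicate block, the offsets or both, and 0 to 35 and 0 to 15 with 1 library left out.

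Whether the replicate numbers pair the samples could not be told. Deviations of same-numbered libraries from their group means correlated between -0.351 and 0.162. The 2 bIRI libraries deviate from their mean in exactly opposite ways, so these correlations cannot decide it. With the replicate block Nfkb2 was at 1.44 in BHBNa_bIRI against bIRI (edgeR adjusted p 0.0711), and no gene of the 17967 was called (0). With 2 bIRI libraries and 5 residual degrees of freedom, small changes of these genes could not be detected.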
